A study of Homo sapiens with 4 samples.

Results

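Nuclear receptors and the coregulators that work with them were followed in A549 cells exposed to dexamethasone. The set held 43 genes, 27 receptors and 16 coregulators, taken by gene symbol from the 34484 symbols listed in the count files. Reads were summed over all transcripts of a symbol, and a gene was used where the 4 libraries together held at least 40 reads. This left 40 of the 43 genes, 24 receptors and all 16 coregulators. The rule used no difference between the groups, but the set was proposed with earlier results of these data known. A549 is an established human lung adenocarcinoma line. The dex group was A549 cells given 100 nM dexamethasone for 3 h, a glucocorticoid drug whose receptor is encoded by NR3C1. The etoh group was A549 cells given 0.02% ethanol by volume as vehicle, also for 3 h. Each group had 2 mRNA sequencing libraries, and separate cultures are not stated in the labels. The p-values therefore reflect the spread between libraries alone, and that spread may be technical.

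Nuclear receptors are transcription factors whose ligand-binding domain takes up small lipophilic molecules such as steroids, retinoids, thyroid hormone, fatty acids, oxysterols and bile acids. Orphan members have no established hormone. Many retinoid, thyroid and lipid receptors sit on DNA as heterodimers with a retinoid X receptor, where they hold corepressors such as NCOR1 without ligand and exchange them for coactivators of the NCOA family, CREBBP, EP300 and Mediator when ligand binds. The glucocorticoid receptor draws on many of the same coregulators.

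Aligned reads numbered 9828448 and 11138944 for the dex libraries and 9764159 and 11887526 for the etoh libraries. Levels are given in CPM, the reads of a gene scaled to the aligned total of its library, and 3 reads, the floor for a gene at 0, were 0.252 to 0.307 CPM. Established glucocorticoid-responsive genes were higher in the dex libraries. FKBP5 had a log2 fold change of 3.39, TSC22D3 of 4.46 and PER1 of 3.88, all dex against etoh. All 8 A549 epithelial markers were detected, with summed levels of 26716 and 25164 CPM in dex and 25040 and 24440 CPM in etoh. ALDH1A1 made up most of that sum, and 3 of the 8 were called higher in dex. KRT8 had 3805 and 3167 CPM in dex and 1660 and 1795 CPM in etoh (log2 fold change 1.04), and KRT18 and KRT7 had log2 fold changes of 0.68 and 0.67. Fibroblast markers summed to 17.2 and 21.9 CPM in dex and to 11.5 and 16.0 CPM in etoh, with COL1A2 at 0 and COL1A1 called higher (log2 fold change 0.57, edgeR adjusted p 0.043), a call lost without dex replicate 2 (adjusted p 0.23), without etoh replicate 1 (0.43) and in DESeq2 (0.24). Immune markers summed to 1.74 to 3.36 CPM, with CD3E at 0. Most of that sum was CD14, at 2.95 and 1.80 CPM in dex and 1.64 and 2.02 CPM in etoh. CD14 did not pass (log2 fold change 0.37, edgeR adjusted p 0.60). Endothelial markers summed to 0.252 to 1.02 CPM, with VWF at 0. Any part of these markers in the results below was not tested. In these bulk libraries, fewer cells of a type and less RNA per cell cannot be told apart.

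Of the 40 genes used, 12 had an adjusted p below 0.05, by the quasi-likelihood test of edgeR, Benjamini-Hochberg adjusted over 14716 genes. Of these, 5 rose and 7 fell in dex. Over all genes tested, 11.5% passed, 7.12% higher and 4.34% lower, so the share among these genes was 30% against 11.5%. Receptors accounted for 9 of the 12, with 4 of 24 higher and 5 of 24 lower, and coregulators for the other 3, with 1 of 16 higher and 2 of 16 lower. The genes also had more reads than most, with a median of 1429 over the 4 libraries against 804 for all genes tested. Among the 14521 genes tested with at least 40 reads, 11.4% passed. These are nearly all of the 14716 genes tested, so that share does not match the 40 genes for read number. Libraries of the groups did not overlap for 29 of the 40 genes, against 53.4% of all genes. The median log2 fold change of the 40 was -0.04, against 0.00176 over all genes, and the 28 genes that did not pass lay between -0.74 and 0.27. DESeq2 called 4 higher and 3 lower of the same 40, and 633 higher and 367 lower of all genes. It was run on the 24379 symbols with reads in any library, not on the 14716 genes, so its shares do not compare directly with those of edgeR.

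**Figure D1:**
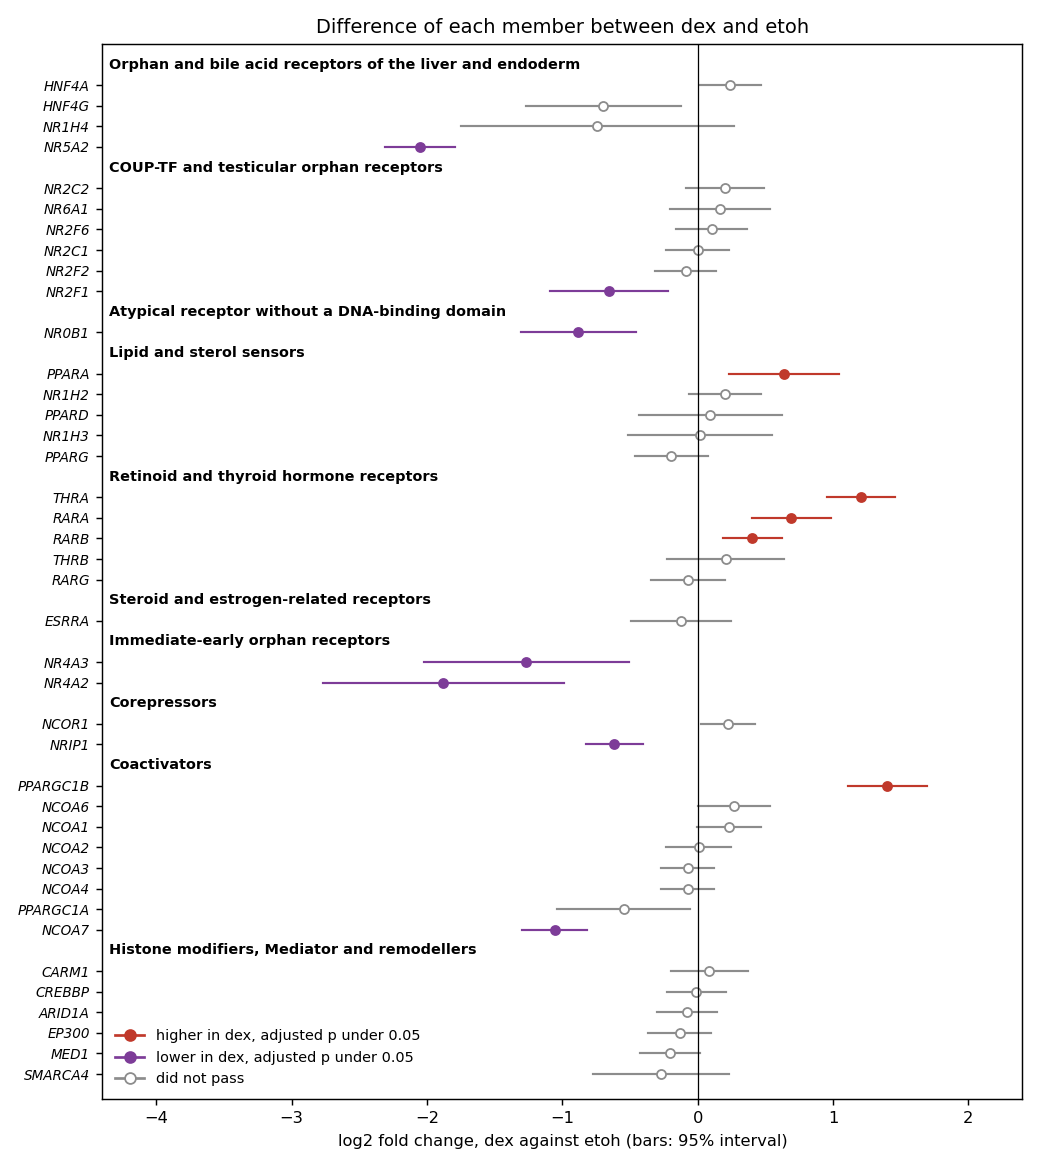
Log2 fold change of each of the 40 genes used, dex against etoh, grouped by role, with bars for the 95% interval from edgeR. Filled points passed an adjusted p of 0.05: 5 lie right of 0 and 7 left of it, and the open points of the last group, histone modifiers, Mediator and remodellers, all lie close to 0.

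NR5A2 showed the greatest decrease among the genes used. NR5A2, also called liver receptor homolog 1, is an orphan receptor that binds DNA as a monomer and is known for control of bile acid and steroid synthesis in liver, gut and ovary. Its level was 21.2 and 24.5 CPM in dex, against 102 and 90.6 CPM in etoh. Both dex libraries lay far below both etoh libraries, at 208 and 273 reads in dex against 999 and 1077 reads in etoh. The log2 fold change was -2.05 (SE 0.12, 95% interval -2.31 to -1.80), a 4.15-fold lower level in dex, with an edgeR adjusted p of 4.23e-11. The gene lies on chromosome 1 at 200027602 to 200177424, plus strand, in GENCODE 29 on GRCh38.

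All 5 of the NR5A2 transcripts tested fell. Over all 49857 transcripts tested, 5.64% passed, 3.57% higher and 2.07% lower in dex. The 2 most abundant encode proteins that differ near the amino end, and the sequences below show where. Capitals mark the 138 coding bases that NR5A2-001 has and NR5A2-003 lacks, at chr1:200039658-200039795 on the plus strand of GRCh38. Lower case marks the coding bases shared on either side, read 5′ to 3′ from the GENCODE 29 transcripts.
NR5A2-001: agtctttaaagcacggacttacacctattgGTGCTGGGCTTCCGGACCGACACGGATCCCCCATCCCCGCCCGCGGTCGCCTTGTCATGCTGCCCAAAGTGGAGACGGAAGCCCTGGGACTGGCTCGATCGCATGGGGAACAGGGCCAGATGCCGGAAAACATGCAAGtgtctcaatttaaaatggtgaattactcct
NR5A2-003: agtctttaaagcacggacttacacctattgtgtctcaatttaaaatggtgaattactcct
NR5A2-001, with 541 residues, had 125 and 176 reads in dex and 618 and 708 reads in etoh. NR5A2-003, with 495 residues, had 59 and 61 reads in dex and 224 and 237 reads in etoh. Both were lower in each dex library than in either etoh library, with log2 fold changes of -2.09 and -1.89. The 3 scarcer transcripts had log2 fold changes of -2.42 for NR5A2-002, -2.05 for NR5A2-201 and -2.25 for NR5A2-005. Reads that fall in sequence common to several transcripts were placed by the authors' alignment, so transcripts of a gene are not independent measurements.

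The other receptors of liver and endoderm did not pass. HNF4A, a constitutive regulator of hepatocyte and gut genes, had 64.3 and 67.1 CPM in dex and 54.9 and 58.0 CPM in etoh, a log2 fold change of 0.24 (SE 0.11, edgeR adjusted p 0.18). HNF4G, its paralogue, had 2.85 and 3.05 CPM in dex and 5.53 and 4.29 CPM in etoh. The libraries of HNF4G did not overlap between the groups, and its log2 fold change was -0.70 (SE 0.28, edgeR adjusted p 0.11). NR1H4, the bile acid receptor FXR, was near the limit of detection, with 6 and 10 reads in dex and 16 and 12 reads in etoh, 0.610 and 0.898 CPM in dex and 1.64 and 1.01 CPM in etoh. Its log2 fold change of -0.74 (SE 0.49) did not pass (edgeR adjusted p 0.39). With 44 reads in all, NR1H4 stood just inside the 40-read limit, and NR4A2 came next with 89 reads.

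Of the COUP-TF and testicular orphan receptors, 1 of 6 passed, beside 11.5% of all genes tested. NR2F1, or COUP-TF1, a receptor of neural development that often opposes other receptors at shared sites, had 7.63 and 5.57 CPM in dex and 9.73 and 11.2 CPM in etoh. Those levels rest on 75 and 62 reads in dex and 95 and 133 in etoh, and the groups did not overlap. NR2F1 fell with a log2 fold change of -0.65 (SE 0.21, edgeR adjusted p 0.046), close to the threshold. The call was lost without dex replicate 2 (log2 fold change -0.43, adjusted p 0.26), without etoh replicate 2 (-0.57, adjusted p 0.15) and in DESeq2 (adjusted p 0.31). NR2F1 shares 158 exon bases with the antisense gene NR2F1-AS1, which had 19 and 29 reads in dex and 27 and 30 in etoh, and whether the counts used strand is not stated. Its more abundant paralogue NR2F2, or COUP-TF2, a receptor of vein and mesenchyme identity, had 62.6 and 62.7 CPM in dex and 69.7 and 65.6 CPM in etoh, and did not pass (log2 fold change -0.09, edgeR adjusted p 0.68). NR2C1 averaged 45.1 CPM in dex and 45.9 CPM in etoh. NR2F6, NR2C2 and NR6A1 had log2 fold changes of 0.10, 0.20 and 0.17, and none of these 4 passed.

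NR0B1, or DAX1, is an atypical receptor that lacks the usual DNA-binding domain and represses partners that include NR5A2. It had 5.39 and 5.84 CPM in dex and 9.73 and 11.3 CPM in etoh, from 53 and 65 reads in dex and 95 and 134 in etoh. NR0B1 fell in dex, with libraries that did not overlap and a log2 fold change of -0.88 (SE 0.20, edgeR adjusted p 0.0051). In DESeq2 its adjusted p was 0.076. NR5A2 and NR0B1, which are known to bind each other, were both lower in dex.

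Among the retinoid and thyroid hormone receptors, 3 of 5 rose and none fell, beside 7.12% higher and 4.34% lower over all genes tested. THRA encodes thyroid hormone receptor alpha, which regulates metabolic rate and development. It had 82.9 and 86.3 CPM in dex, against 32.4 and 41.7 CPM in etoh. Both dex libraries stood well above both etoh libraries. The log2 fold change was 1.21 (SE 0.12, 95% interval 0.96 to 1.46), or 2.31-fold, with an edgeR adjusted p of 1.59e-07. THRA lies on chromosome 17 at 40058290 to 40093867, plus strand, in GENCODE 29 on GRCh38.

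THRA is known for a pair of proteins with different ends. The alpha 1 protein binds thyroid hormone, whereas alpha 2 has another carboxyl end and does not. Their transcripts share the first 1111 coding bases, and the sequences below show the last shared bases in lower case and the first bases that differ in capitals, 5′ to 3′ on the plus strand of GRCh38. The capitals lie at chr17:40089335-40089394 for THRA-002, the alpha 1 form, and at chr17:40093021-40093080 for THRA-001, the alpha 2 form.
THRA-002: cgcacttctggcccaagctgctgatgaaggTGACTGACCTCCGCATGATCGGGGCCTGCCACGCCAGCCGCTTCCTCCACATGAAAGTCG
THRA-001: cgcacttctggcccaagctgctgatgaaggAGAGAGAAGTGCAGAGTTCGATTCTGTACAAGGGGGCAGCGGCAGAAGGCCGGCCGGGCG
THRA-002, with 410 residues, had 559 and 609 reads in dex and 203 and 322 in etoh, a log2 fold change of 1.23. THRA-001, with 490 residues, had 66 and 90 reads in dex and 34 and 37 in etoh, a log2 fold change of 1.19. All 5 of the THRA transcripts tested rose, against 3.57% of all transcripts tested. Transcripts with the alpha 1 length held 77.2% and 73.5% of THRA reads in dex and 70.6% and 73.4% in etoh. Those with the alpha 2 length held 13.9% and 15.5% in dex and 18.4% and 14.7% in etoh. These shares of reads are not corrected for transcript length, which is 4895 bases for THRA-002 and 2538 bases for THRA-001. A further coding transcript, THRA-005 with 451 residues, is in neither share, and its carboxyl end was not compared with that of either form. THRA-005 held 7.26% of THRA reads in dex and 8.74% in etoh and rose with a log2 fold change of 0.92 (edgeR adjusted p 0.023). The shares of the alpha 1 and alpha 2 lengths lay close together in all 4 libraries, with no test made of the shares. The alpha 2 end overlaps the opposite-strand gene NR1D1 over 263 exon bases of THRA. NR1D1, the clock repressor REV-ERB alpha, had 30 and 34 reads in dex and 31 and 35 in etoh, far fewer than THRA and with a log2 fold change of 0.02 (edgeR adjusted p 0.98).

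RARA and RARB, receptors for all-trans retinoic acid, both rose. RARA, the form expressed in most tissues, had 31.9 and 38.4 CPM in dex and 19.5 and 24.6 CPM in etoh. The groups did not overlap, and the log2 fold change was 0.69 (SE 0.14, edgeR adjusted p 0.0017). RARA lies on chromosome 17 at 40309192 to 40357643, plus strand. Of its 7 transcripts tested, RARA-001 (462 residues) and RARA-004 (457 residues) rose, each with a log2 fold change of 0.94. Over all transcripts tested, 3.57% rose. The other 5 RARA transcripts had log2 fold changes between 0.26 and 1.08 that did not pass.

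RARB, a receptor gene that retinoic acid itself induces, had 105 and 101 CPM in dex and 82.3 and 76.0 CPM in etoh. The difference was small but without overlap, with a log2 fold change of 0.40 (SE 0.11, edgeR adjusted p 0.013), or 1.32-fold. The call was lost without dex replicate 1 (log2 fold change 0.37, adjusted p 0.077) and without etoh replicate 2 (0.33, adjusted p 0.14). RARB lies on chromosome 3 at 25174332 to 25597932, plus strand, and it shares 28 exon bases with TOP2B on the other strand. RARB-001, with 448 residues, had 322 and 370 reads in dex and 233 and 285 in etoh, and rose with a log2 fold change of 0.48 (edgeR adjusted p 0.025). RARB-201, with 455 residues, rose with a log2 fold change of 0.81, and the remaining 3 transcripts had 0.19 to 0.37 and did not pass.

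The promoter before RARB-001 and RARB-002 holds the classical retinoic acid response element, and is shown as a known case of a receptor gene controlled by its own receptor. The window is the 250 bases before the RefSeq start, chr3:25428013-25428262 on the plus strand of GRCh38.p14. RARB-002 starts at the next base and RARB-001 48 bases further on. Capitals mark the element GTTCACCGAAAGTTCA, at positions -52 to -37 counted from the start.
RARB window: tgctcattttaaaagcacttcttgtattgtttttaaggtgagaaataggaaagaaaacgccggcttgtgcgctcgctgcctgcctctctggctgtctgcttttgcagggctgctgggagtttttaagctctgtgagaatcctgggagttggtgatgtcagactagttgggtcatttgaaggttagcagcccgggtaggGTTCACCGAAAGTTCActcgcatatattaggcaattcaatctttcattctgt
Its pattern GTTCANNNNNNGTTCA, a direct repeat searched on both strands, was in 17 of 35116 RefSeq windows of this length and in no other window of the 40 genes. RARG, the receptor form typical of skin, averaged 27.9 ± 1.52 CPM in dex and 29.7 ± 2.93 CPM in etoh (SD, n = 2 each), with overlapping libraries, and did not pass. THRB, the other thyroid hormone receptor gene, had 9.67 and 10.9 CPM in dex and 11.0 and 7.32 CPM in etoh, which overlap as well.

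THRA and RARA lie near each other on chromosome 17 and RARB and THRB on chromosome 3, in paired arrangements that each also hold a REV-ERB gene. These neighbourhoods were chosen after the values were seen and hold genes of the set that passed, so their counts are descriptive. Over all genes tested, 11.5% passed, 7.12% higher and 4.34% lower. From MED1 to TOP2A on chromosome 17, 24 genes were tested, 3 rose and none fell in edgeR. The 3 were THRA, RARA and CSF3, the granulocyte colony-stimulating factor gene, which had 1.02 and 1.08 CPM in dex and 0 reads in both etoh libraries. MED24, which lies next to THRA, had a log2 fold change of 0.24 and NR1D1 of 0.02, and neither passed. On chromosome 3, 2 of 4 genes tested from NR1D2 to TOP2B rose. NR1D2, the clock repressor REV-ERB beta, had 203 and 207 CPM in dex and 74.3 and 74.2 CPM in etoh, a log2 fold change of 1.49 (SE 0.10), while THRB between NR1D2 and RARB had 0.21 and did not pass.

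**Figure D2:**
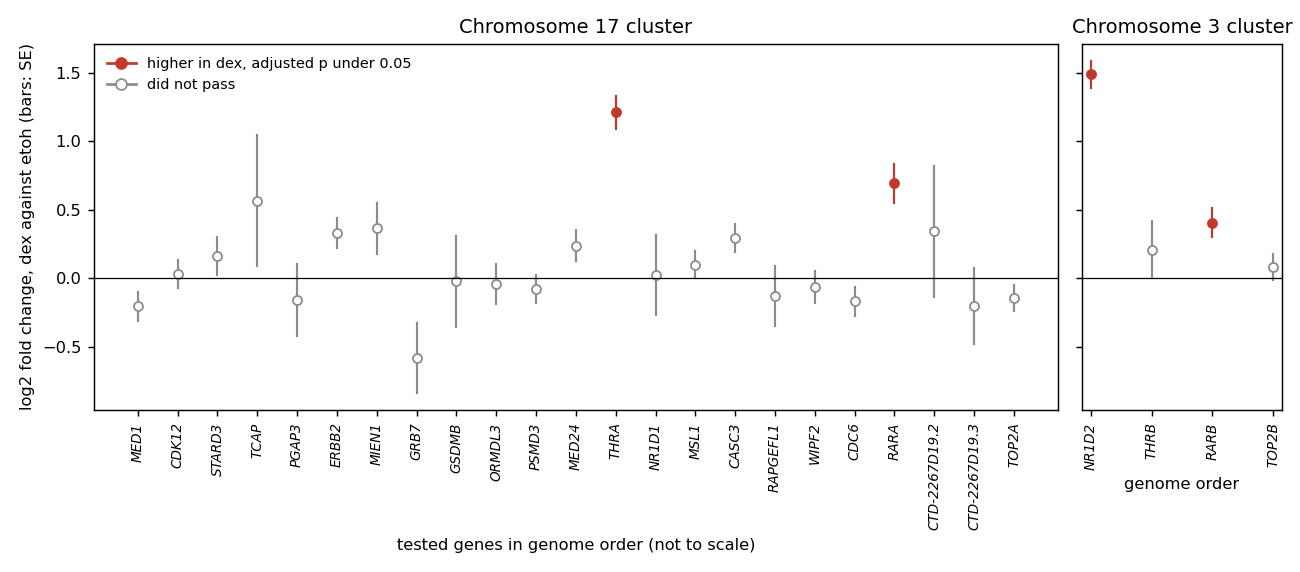
Log2 fold change, dex against etoh, of tested genes in genome order around the chromosome 17 and chromosome 3 receptor genes, with bars for 1 SE and without CSF3, which had 0 reads in etoh. THRA at 1.21 and RARA at 0.69 stand out on chromosome 17, and NR1D2 at 1.49 and RARB at 0.40 on chromosome 3, among genes that did not pass.

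Of the 5 lipid and sterol sensors, only PPARA passed, beside 11.5% of all genes tested. PPARA, the fatty acid receptor that drives fat oxidation in liver and the target of fibrates, had 10.7 and 11.0 CPM in dex and 7.58 and 6.65 CPM in etoh. It rose without overlap, with a log2 fold change of 0.64 (SE 0.19, edgeR adjusted p 0.035). The call was lost without dex replicate 1 (adjusted p 0.070), without dex replicate 2 (0.077), without etoh replicate 2 (0.18) and in DESeq2 (0.29), and its 3 transcripts tested had log2 fold changes of 0.56 to 0.69 of which none passed alone. PPARG, the adipocyte receptor, had 31.8 and 37.6 CPM in dex and 44.1 and 36.9 CPM in etoh, which overlap (log2 fold change -0.20, edgeR adjusted p 0.40). PPARD and the liver X receptors NR1H2 and NR1H3, which sense oxysterols, had log2 fold changes of 0.09, 0.20 and 0.02 and did not pass.

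Both immediate-early orphan receptors of the set fell, beside 4.34% of all genes tested. NR4A2 and NR4A3 belong to the NURR1 and NOR1 family, whose genes are switched on within minutes by growth factors, calcium and cyclic AMP. NR4A2 had 7 and 11 reads in dex and 20 and 51 in etoh, or 0.712 and 0.988 CPM in dex and 2.05 and 4.29 CPM in etoh. The etoh libraries of NR4A2 stood far apart from each other, and both lay above the dex libraries. Its log2 fold change was -1.88 (SE 0.43, edgeR adjusted p 0.0046), and without etoh replicate 2 it was -1.24 with an adjusted p of 0.21. NR4A3 had 11 and 16 reads in dex and 36 and 32 in etoh, or 1.12 and 1.44 CPM in dex and 3.69 and 2.69 CPM in etoh. It fell with a log2 fold change of -1.27 (SE 0.36, edgeR adjusted p 0.025), a call lost without dex replicate 1 (adjusted p 0.14) and without etoh replicate 1 (0.29). In DESeq2 the adjusted p was 0.081 for NR4A2 and 0.26 for NR4A3. NR4A1, a family member from the list of other receptors, had 79 and 84 reads in dex and 70 and 146 in etoh. Its log2 fold change of -0.32 did not pass (edgeR adjusted p 0.43).

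Among the steroid and estrogen-related receptors of the set, all but ESRRA were scarce. ESR1, estrogen receptor alpha, had 0 and 4 reads in dex and 12 and 6 in etoh, 22 in all, and so stood just outside the 40-read limit. ESRRG had 1 read, in etoh replicate 2, and PGR, the progesterone receptor, had 0 in all libraries. ESR1, ESRRG and PGR were not compared between the groups. ESRRA, the partner of the PGC-1 coactivators in mitochondrial gene control, had 9.87 and 11.0 CPM in dex and 11.0 and 12.2 CPM in etoh, and did not pass (log2 fold change -0.13, edgeR adjusted p 0.73).

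Of the corepressors, NRIP1 fell and NCOR1 did not pass. NRIP1, or RIP140, is a ligand-dependent corepressor that competes with coactivators and is known for its control of fat metabolism and ovulation. It had 112 and 115 CPM in dex and 184 and 169 CPM in etoh. The groups were well apart, with a log2 fold change of -0.62 (SE 0.10, edgeR adjusted p 1.42e-04), a 1.53-fold lower level in dex. The transcripts NRIP1-001, NRIP1-002 and NRIP1-201 all encode 1158 residues. Those 3 transcripts fell with log2 fold changes of -0.59, -0.54 and -0.72, and NRIP1-004, with 197 coding bases listed, fell with -1.22. NRIP1 shares exon bases with 2 clone-named genes of 197 and 462 reads, against 6183 reads for NRIP1. The first, AF127577.10 on the opposite strand, shares 562 bases and had a log2 fold change of -0.84 (edgeR adjusted p 0.069). The second, AF127936.7 on the same strand, shares 87 bases and had -0.24 (edgeR adjusted p 0.48). NCOR1, the scaffold that brings histone deacetylase 3 to unliganded receptors, had 239 and 242 CPM in dex and 214 and 203 CPM in etoh, without overlap and with a log2 fold change of 0.22 (edgeR adjusted p 0.15). Of 14 NCOR1 transcripts tested, NCOR1-007 alone passed, with a log2 fold change of 0.52 (edgeR adjusted p 0.048, close to the threshold). Over all 49857 transcripts tested, 5.64% passed.

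Of the 8 coactivators, 1 rose, 1 fell and 6 did not pass, beside 7.12% higher and 4.34% lower over all genes tested. PPARGC1B, or PGC-1 beta, coactivates estrogen-related receptors and NRF1 on genes of mitochondria and oxidative metabolism. It had 37.0 and 34.9 CPM in dex, against 13.1 and 14.5 CPM in etoh, from 364 and 389 reads in dex and 128 and 172 in etoh. PPARGC1B showed the greatest rise of the 40 genes, with a log2 fold change of 1.40 (SE 0.14, 95% interval 1.11 to 1.69), or 2.64-fold, and an edgeR adjusted p of 1.66e-07. PPARGC1B-001, which encodes the full 1023 residues, held 87.5% of its reads in dex and 91.3% in etoh and rose with a log2 fold change of 1.33. PPARGC1B lies on chromosome 5 at 149730298 to 149855022, plus strand.

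PPARGC1A, or PGC-1 alpha, the paralogue induced by fasting, cold and exercise, pointed the other way without passing. It had 5.19 and 4.67 CPM in dex and 8.50 and 6.23 CPM in etoh, without overlap, and a log2 fold change of -0.55 (SE 0.24, edgeR adjusted p 0.16). Without etoh replicate 2, PPARGC1A passed, with a log2 fold change of -0.79 and an adjusted p of 0.045. The difference between the responses of PPARGC1A and PPARGC1B was not tested.

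NCOA7, an estrogen receptor coactivator that also has a TLDc domain of oxidative stress proteins, was the other coactivator past the threshold. It had 48.9 and 58.3 CPM in dex, against 120 and 106 CPM in etoh. Both dex libraries lay well below both etoh libraries, with a log2 fold change of -1.06 (SE 0.12, edgeR adjusted p 6.16e-07), a 2.08-fold lower level in dex. Of 7 NCOA7 transcripts tested, 5 fell, against 2.07% of all transcripts tested. The 5 included NCOA7-005 and NCOA7-202, which both encode 942 residues, with log2 fold changes of -0.93 and -1.25. NCOA7-201, with 827 residues, had a log2 fold change of -0.51 and did not pass (edgeR adjusted p 0.17). NCOA7 lies on chromosome 6 at 125781161 to 125932030, plus strand.

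The p160 coactivators NCOA1, NCOA2 and NCOA3, which bind the activated ligand-binding domain of steroid receptors, did not pass. NCOA2, known as a glucocorticoid receptor partner under the name GRIP1, had 61.5 and 72.9 CPM in dex and 71.2 and 64.8 CPM in etoh, with a log2 fold change of 0.01. NCOA1 had a log2 fold change of 0.23 and NCOA3 of -0.07. NCOA4, which also delivers ferritin to autophagy, had -0.07 and NCOA6, a scaffold of histone methyltransferase complexes, had 0.27.

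No gene passed among the 6 histone modifiers, Mediator subunits and chromatin remodellers in edgeR, beside 11.5% of all genes tested. At an unadjusted p under 0.05 there were 0 of the 6, and DESeq2 and limma-voom each called 0. The acetyltransferases CREBBP and EP300 had log2 fold changes of -0.01 and -0.13. The arginine methyltransferase CARM1 had 0.09, the Mediator subunit MED1, which contacts many receptors, -0.20, and the SWI/SNF subunit ARID1A -0.08. SMARCA4, the BRG1 ATPase whose gene is known to be inactivated in A549, had 5.39 and 4.13 CPM in dex and 5.84 and 5.80 CPM in etoh (log2 fold change -0.27, edgeR adjusted p 0.55).

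**Figure D3:**
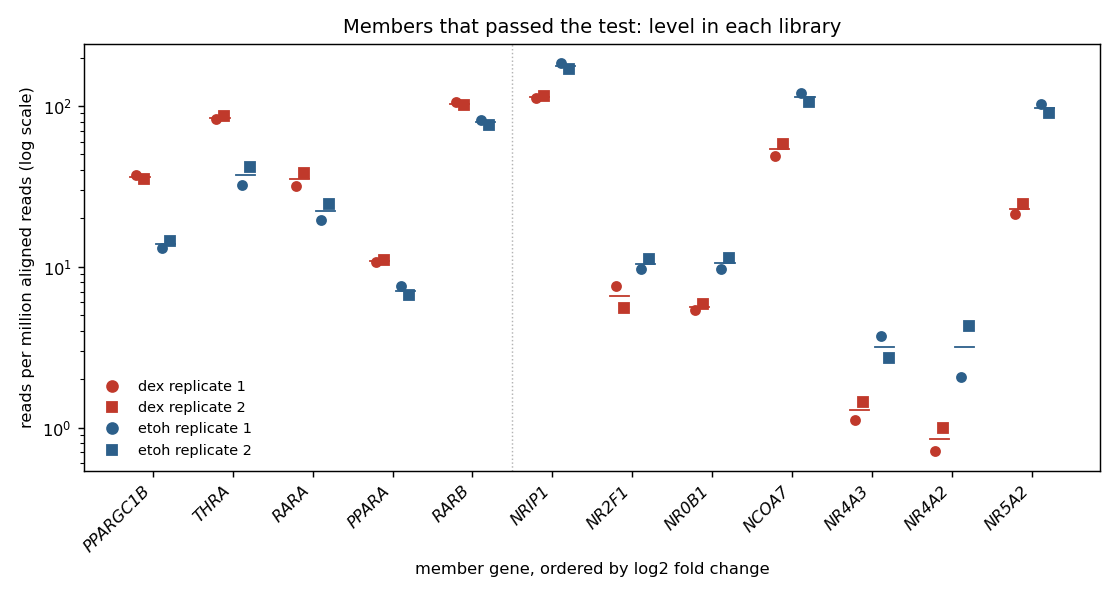
Level in each library, in CPM on a log axis, of the 12 genes that passed the test, with a short line at each group mean and dex left of etoh. The libraries of the groups do not overlap in any of the 12, and NR4A2 has the widest gap between its etoh libraries, 2.05 and 4.29 CPM.

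At the transcript level, the 40 genes had 280 listed transcripts, and 159 could be tested. Of these, 11 rose and 17 fell, against 3.57% and 2.07% of all 49857 transcripts tested. For NR5A2, THRA and NRIP1, every transcript tested passed in the direction of its gene. NCOA7, RARA and RARB held transcripts that passed and others that did not, and no transcript of the 40 genes passed in the direction opposite to a gene that had passed. NR0B1-001, NR2F1-001 and NR4A2-001 fell with log2 fold changes of -0.92, -0.67 and -1.76, while NR4A3-003 had -1.20 and did not pass (edgeR adjusted p 0.081).

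**Figure D4:**
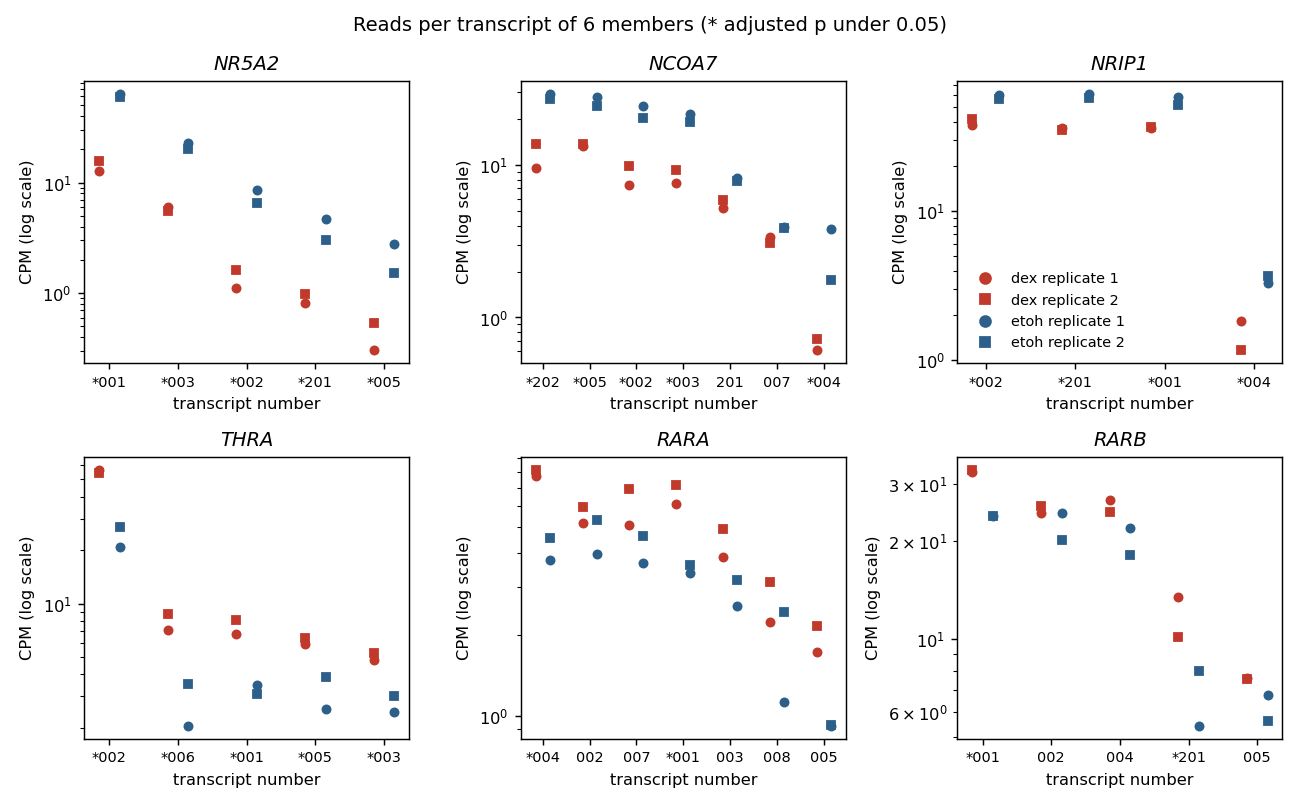
Level in CPM, on a log axis, of transcripts with a mean of at least 1 CPM for 6 genes, dex left of etoh, with an asterisk where the transcript passed an adjusted p of 0.05. Every NR5A2 and NRIP1 transcript shown is lower in dex and every THRA transcript higher, whereas NCOA7, RARA and RARB include transcripts that did not pass.

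Levels between genes were compared in TPM, which also corrects for transcript length, with no test. The coregulators NCOA4, at 152 and 155 TPM in dex and 167 and 165 TPM in etoh, and NCOR1, at 127 and 133 TPM in dex and 126 and 108 TPM in etoh, were the most abundant genes of the set. RARB was the most abundant receptor, at 84.3 and 80.7 TPM in dex and 65.2 and 60.6 TPM in etoh. NR5A2 had 12.3 and 13.3 TPM in dex and 55.9 and 45.8 TPM in etoh, so that in etoh it stood among the highest receptors, with values that overlapped those of NR2C1 and PPARG. THRA had 46.0 and 54.4 TPM in dex and 19.6 and 25.1 TPM in etoh. In dex, THRA lay above NR5A2, and in etoh it lay below it, in all libraries. PPARGC1B had 8.08 and 7.97 TPM in dex and 2.90 and 2.88 TPM in etoh, against 2.04 and 2.15 TPM in dex and 3.98 and 2.81 TPM in etoh for PPARGC1A. By the mean in etoh, the lowest genes used were NR4A3 at 0.46 and 0.57 TPM in dex and 1.59 and 1.12 TPM in etoh, NR1H4, PPARA and SMARCA4.

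**Figure D5:**
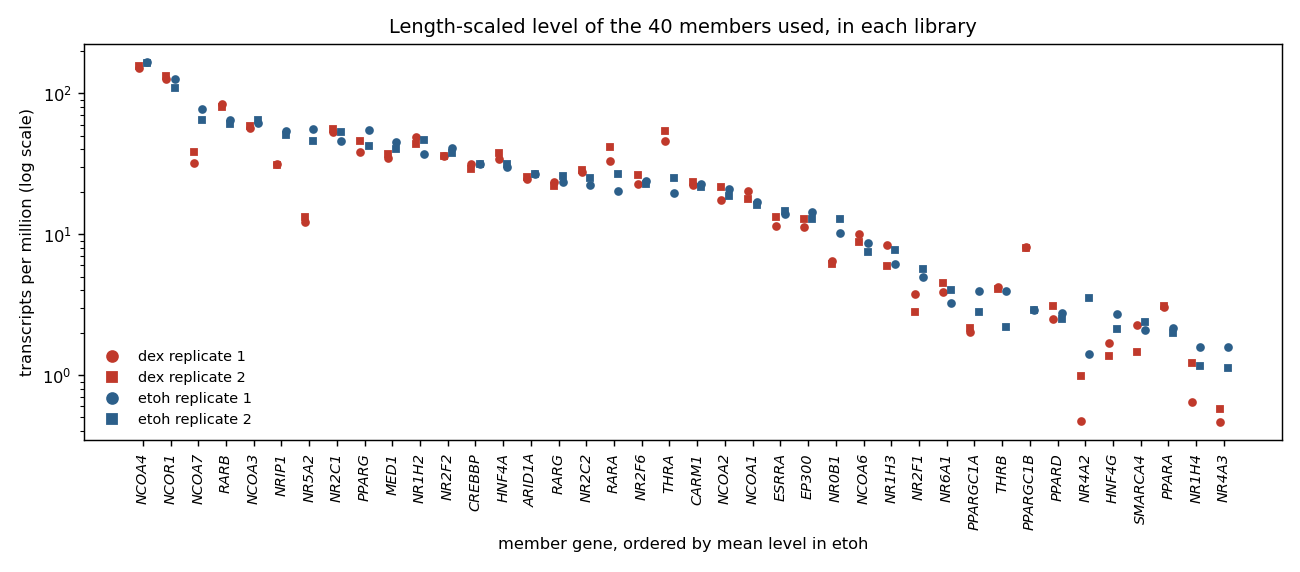
Length-scaled level of the 40 genes used, in TPM on a log axis, in each library, ordered by the mean in etoh. The order runs from NCOA4 to NR4A3, and NR5A2, PPARGC1B, NCOA7, THRA and NR4A3 are among the genes with wide separations between the groups.

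The remaining receptors and coregulators were described from lists, beside 7.12% higher and 4.34% lower over all genes tested. Of 21 other receptors, 9 had enough reads to be tested, and 1 rose and 1 fell, with a median log2 fold change of 0.02. NR1D2 was the one that rose. NR3C1, the glucocorticoid receptor itself, had 353 and 385 CPM in dex and 552 and 596 CPM in etoh and fell with a log2 fold change of -0.61 (edgeR adjusted p 7.97e-05). The retinoid X receptors RXRA and RXRB, the shared partners of the retinoid, thyroid and lipid receptors, had log2 fold changes of 0.47 and 0.33 and did not pass. Of 50 other coregulators, 49 were tested, 4 rose and 1 fell, with a median of 0.02. TACC1 had 295 and 247 CPM in dex and 149 and 153 CPM in etoh, and rose with a log2 fold change of 0.87. PIAS1 rose with 0.50 and GPS2 with 0.59. GPS2 passed although its libraries overlapped, at 135 and 78.7 CPM in dex and 60.9 and 82.3 CPM in etoh. GPS2 lost its call without dex replicate 1 (log2 fold change 0.15, adjusted p 0.71), without etoh replicate 1 (0.41, adjusted p 0.063), with a robust dispersion fit (adjusted p 0.50) and in DESeq2 (0.63). FHL2 fell with a log2 fold change of -0.38 (edgeR adjusted p 0.034). That call was lost without dex replicate 2 (adjusted p 0.15), without etoh replicate 2 (0.26) and in DESeq2 (0.12).

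Target genes of several receptor families were counted as well, whether or not a receptor of the family passed. The shares to set beside these counts are 7.12% higher and 4.34% lower over all genes tested. Many such genes answer to other factors too, and thyroid hormone target genes were not listed. Of 14 PPAR target genes tested, 4 rose and none fell, with a median log2 fold change of 0.14. ANGPTL4, an inhibitor of lipoprotein lipase, had 75.0 and 79.0 CPM in dex and 2.66 and 4.79 CPM in etoh, a log2 fold change of 4.36. CIDEC, a lipid droplet protein, had 44.5 and 38.3 CPM in dex and 2.46 and 2.36 CPM in etoh, a log2 fold change of 4.12. PDK4, which restrains glucose oxidation, rose with 1.70, and ACSL1, which activates long-chain fatty acids, with 1.61. ANGPTL4 and PDK4 are also known as direct glucocorticoid targets.

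Of 12 retinoic acid receptor target genes tested, 2 rose and 4 fell, with a median of -0.29. CYP26A1, the retinoic acid hydroxylase that is a standard readout of retinoid action, had 11 and 13 reads in dex and 34 and 33 in etoh, and fell with a log2 fold change of -1.41 (edgeR adjusted p 0.013). RARRES1 fell with -0.76, GPRC5A with -0.52 and NRIP1 with -0.62, while STRA6, a retinol transporter, rose with 0.40, as did RARB. NRIP1 and RARB are members of both this list and the set of receptors and coregulators. Without etoh replicate 1, CYP26A1 (adjusted p 0.15), RARRES1 (0.14) and STRA6 (0.28) lost their calls. Without dex replicate 1, CYP26A1 (0.055), STRA6 (0.079) and RARB (0.077) lost theirs, and RARB also without etoh replicate 2 (0.14). In DESeq2, CYP26A1, RARRES1 and STRA6 had adjusted p-values of 0.19, 0.095 and 0.081.

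Of 9 liver X receptor target genes tested, ABCA1, a cholesterol exporter, rose with a log2 fold change of 0.96, and MYLIP, a ligase that degrades the LDL receptor, fell with -0.95. Of 19 ERR and PGC-1 target genes tested, VEGFA alone passed, with a log2 fold change of 0.49, and the median was 0.04. MYLIP lost its call without dex replicate 1 and without etoh replicate 2 (adjusted p 0.15 for both) and in DESeq2 (0.28), and VEGFA without etoh replicate 2 (0.093) and in DESeq2 (0.071). No target gene passed in edgeR among 3 of the farnesoid X receptor and NR5A2 list that could be tested, of 16 listed, or among 4 of the HNF4A list, of 19 listed. At an unadjusted p under 0.05 there were 0 of the 3 and 1 of the 4, APOH, and DESeq2 and limma-voom each called 0 in both lists. Most of the classical NR5A2, FXR and HNF4A target genes had too few reads in A549 to be tested.

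Promoter windows of 250 bases before RefSeq starts were searched on both strands for receptor half-sites, as a description. Of the 40 genes, 35 had at least 1 window, 66 windows in all. The glucocorticoid receptor half-site AGAACA was in 7 of the 66, those of CREBBP, NR0B1, NR2F1, NR5A2, PPARD, PPARGC1B and RARB, against 12.4% of all 35116 windows. The palindrome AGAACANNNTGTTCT, which contains that half-site, was in none of the 66 and in 1 window of all. The receptor half-site AGGTCA was in 10 of the 66 windows, against 12.1% of all windows. Those windows belonged to 8 genes, NCOA4, NR0B1, NR1H3, NR1H4, NR5A2, PPARG, RARA and RARB. A window without a match says only that these letters are not in it.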

How the data were processed

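RNA was sequenced from 2 dex and 2 etoh samples of A549 cells. The authors deposited raw counts of aligned reads per transcript, 1 file per library, listing 119207 transcripts and their lengths. The tools named, per the submitters' processing notes, were Bowtie, CASAVA, DESeq2 and SAMtools. Neither their versions and settings nor the build, annotation and strandedness are stated in the sources used here, and shared reads may sit with the wrong transcript or gene. Each file's unnamed row of unaligned reads, 17.2% to 18.7% of all reads, was left out.

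Here counts were summed by symbol (121 symbols join several gene identifiers) and tested with edgeR 4.0.16 in R 4.3.3: filterByExpr with a minimum count of 10, TMM factors, a quasi-likelihood test of dex against etoh, two-sided, with Benjamini-Hochberg adjustment over 14716 genes and a threshold of 0.05. The SE was computed from the test's F statistic. Transcripts were tested alike. CPM used aligned totals, and length-scaled levels used the deposited transcript lengths. No libraries were duplicates: chi-square per degree of freedom was 5.39 for the dex pair, 6.995 for the etoh pair and at least 15.3 for the others. Floors cover counting error only.

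The members and lists were chosen with earlier results of these data known. Named with values per library were members that passed, members whose libraries did not overlap with an absolute log2 fold change of at least 0.5, and genes next to the 40-read limit. From each list came up to 4 called genes with the smallest p-values, of which 1 is not reported here. Others named, the neighbouring genes among them, were chosen after their values were seen. Alternatives were other scalings and filters, DESeq2 1.42.0, limma-voom (limma 3.58.1), a robust dispersion fit, a replicate block, the largest or only the coding transcripts, an adjusted p of 0.01 and removal of each library. Code was tested on simulated data. Positions came from GENCODE 29 on GRCh38, which held 94.8% of the gene identifiers, and promoter windows from RefSeq on GRCh38.p14.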

Additional observations from a re-analysis of the deposited data

How the results depend on the processing

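All 12 genes that passed kept their sign under the 16 alternatives, and NR5A2, THRA, PPARGC1B, NCOA7, NRIP1 and RARA passed under every one. Leaving out 1 library at a time, with the lone library assumed to vary like the other group, gave 3 to 5 of the 40 genes higher and 6 lower, 699 to 1173 of all genes higher and 401 to 831 lower, and 4 to 9 member transcripts higher and 13 to 15 lower. DESeq2 called 4 of the 40 genes higher and 3 lower, and 633 of all genes higher and 367 lower. At an adjusted p of 0.01, 3 of the 40 genes were higher and 5 lower, and 650 of all genes were higher and 363 lower. PPARA and NR4A3 also lost their calls with the largest transcript per gene (adjusted p 0.29 and 0.073). The cause of these changes in calls was not tested. Deviations of same-numbered libraries had a correlation of -0.09, and with only 2 numbers the replicates were not taken as pairs. With the replicate block, 5 of the 40 genes were higher and 7 lower, with 986 and 576 of all genes and 9 and 17 member transcripts. FHL2, the only other coregulator called lower, had an adjusted p of 0.063 with the block. Unscaled library totals gave 980 of all genes higher and 741 lower. A limit of 20 reads kept 41 genes and one of 100 reads kept 37. Of 416 recomputed list counts, 34 moved by over 1.5 times. Depth limits ESR1, ESRRG, PGR, NR1H4, NR4A2 and NR4A3 most.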
